A study of Homo sapiens with 6 samples.

Results

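The genes described here are 6 genes of inflammasome signaling and gasdermin pore formation: the sensor *NLRP1*, the adaptor *PYCARD*, the inflammatory caspases *CASP1* and *CASP4*, and the gasdermins *GSDMD* and *GSDME*. They were chosen by symbol from the deposited table of 12499 genes. No rule on their values was used, but earlier results of these data were known when they were chosen. All 6 had a row, and all 6 were among the 12462 genes tested. The libraries came from HaCaT cells, a single immortalized line of human keratinocytes, so the groups hold no donor variation. Cells of both groups were infected with lentivirus for 48 hours and then kept in high glucose for 24 hours. The virus carried the *ATF7* coding sequence in a pLVX-IRES-Puro vector (LV-*ATF7*) or was the negative control (LV-NC), and each group had 3 libraries of poly(A)-enriched RNA. Neither the labels nor the methods state that the 3 replicates of the sequencing were separate cultures, so the p-values measure the spread between these libraries, which may be technical.

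An inflammasome is a cytosolic complex in which a sensor recruits caspase-1, often through the adaptor ASC, the product of *PYCARD*. Active caspase-1 cuts the precursors of the cytokines IL-1β and IL-18 and frees the pore-forming part of gasdermin D, and the pores lead to pyroptosis, a lytic cell death. NLRP1 is the main inflammasome sensor of human keratinocytes. Caspase-4 binds cytosolic lipopolysaccharide directly and also cuts gasdermin D, and gasdermin E is a further pore-forming gasdermin.

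Total counts ran from 16686472 to 20562768 per library. The transgene check went against the labels. *ATF7* was at 50.6, 46.5 and 52.2 CPM (counts scaled to a common library size, here by the TMM method) in the libraries labeled LV-NC and at 21.9, 25.7 and 28.0 in those labeled LV-*ATF7*, a log2 fold change of -0.98 (SE 0.12, adjusted p = 1.89e-04). Other annotated genes have exons, on either strand, over 94.3% of the *ATF7* coding sequence. Over all *ATF7* exon bases, the overlap was 18.25% on the same strand and 27.12% on the opposite strand. The handling of reads in such overlaps is not given in the sources used here. Whether labels or column names are crossed was not tested, and all directions below refer to the labels. LV-NC replicate 1 stood apart from the other LV-NC libraries: the chi-square per gene between replicates was 75.4 and 67.6 for its pairs and between 2.85 and 10.4 for the other pairs within groups. Several results that changed without that library are given with and without it. Without it, 80.1% of the genes tested had an edgeR adjusted p under 0.05, against 67.6% with all libraries. Of 9 keratinocyte markers, 8 had a row (*KRT1* had none), and their summed level was 1287 to 1804 CPM in LV-NC and 5480 to 5824 CPM in LV-*ATF7*. The markers did not move together: 5 were higher, 2 were lower (*KRT14* and *KRT10*) and *CDH1* was not called. Over all genes tested, 34.7% were higher and 32.9% lower. Without LV-NC replicate 1, *CDH1* was called lower (log2 fold change -0.37). *KRT5*, from 266.4 CPM to 3354 CPM, made up most of the sum in LV-*ATF7*. In LV-NC, *DSP* (588.4 CPM) and *CDH1* (387.5 CPM) were above *KRT5*. *KRT14* was near 0 in LV-NC replicate 1, at 0.375 CPM against 12.5 and 11.3 CPM in the other LV-NC libraries. That replicate lay below every LV-*ATF7* library (1.38 to 1.83 CPM). The *KRT14* call (edgeR adjusted p = 0.0461) was lost with DESeq2 (adjusted p = 0.0549). It held in edgeR without LV-NC replicate 1 (log2 fold change -2.96, adjusted p = 2.23e-13). Of 9 macrophage and monocyte markers, 3 had a row, with a summed level of 5.57 to 8.13 CPM in LV-NC and 9.38 to 12.7 CPM in LV-*ATF7*. *CD68*, *LYZ*, *PTPRC*, *CD86*, *SPI1* and *TYROBP* had no row, and *CD14* was at 1.61 ± 0.113 CPM in LV-NC and 8.17 ± 1.27 CPM in LV-*ATF7* (SD, n = 3 each). *CSF1R* was lower, at 2.79 ± 0.561 CPM and 0.611 ± 0.164 CPM, and *ITGAM* was not called. Without LV-NC replicate 1, *ITGAM* was called lower (log2 fold change -0.90). Fibroblast markers (2 of 6 with a row) summed to 33.1 to 42.7 CPM in LV-NC and 17.3 to 21.7 CPM in LV-*ATF7*, nearly all of it *COL1A1*. *DCN* was counted 31, 0 and 0 times in LV-NC and 39, 59 and 51 times in LV-*ATF7* without being called. Without LV-NC replicate 1, *DCN* was called higher (log2 fold change 8.62), with 0 counts in the LV-NC libraries left. Melanocyte markers (2 of 6 with a row) summed to 17.5 to 24.8 CPM in LV-NC and 12.2 to 13.0 CPM in LV-*ATF7*, with *MITF* lower (18.8 CPM to 8.13 CPM) and *PMEL* higher (2.05 CPM to 4.51 CPM). The part of these marker levels in the results below was not tested. In bulk RNA, fewer cells expressing a gene and less RNA per cell cannot be told apart.

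*CASP4* and *CASP1* lie on the minus strand of chromosome 11 in a row of related genes. In order of position on GRCh38 these are *CASP12*, *CASP4*, *CASP5*, *CASP1*, *CARD16*, *CARD17* and *CARD18*, of which *CASP4*, *CASP1* and *CARD16* had a row in the table. *CARD16* encodes a protein made almost wholly of a caspase recruitment domain (CARD) that inhibits caspase-1, and its CARD exon is a near copy of the one in *CASP1*. Both coding exons are shown because reads from them may be credited to either gene, with the 3 differing bases in capitals (GENCODE release 29, GRCh38, minus strand, 5′ to 3′; chr11:105034208-105034474 for *CASP1* and chr11:105044392-105044658 for *CARD16*).
CASP1: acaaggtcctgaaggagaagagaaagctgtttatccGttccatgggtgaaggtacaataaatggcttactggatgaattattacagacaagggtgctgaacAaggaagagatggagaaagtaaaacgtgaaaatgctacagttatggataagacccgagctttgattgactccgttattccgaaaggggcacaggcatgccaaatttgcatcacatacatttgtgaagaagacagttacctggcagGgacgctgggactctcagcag
CARD16: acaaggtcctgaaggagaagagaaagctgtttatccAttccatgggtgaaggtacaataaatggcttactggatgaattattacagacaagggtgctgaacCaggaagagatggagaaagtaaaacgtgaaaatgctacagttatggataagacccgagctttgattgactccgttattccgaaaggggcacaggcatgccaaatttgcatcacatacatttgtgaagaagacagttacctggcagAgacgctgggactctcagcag
The 267 bases were 98.9% identical, and the longest run without a difference was 144 bases. Of all 50-base stretches in *CASP1* exons, 4.37% also occurred in *CARD16*, and 10.6% of those in *CARD16* occurred in *CASP1*. *CASP4* and *CASP5*, which are close paralogs, shared 0.132% of the 50-base stretches of *CASP4*. The counts of *CASP1* and *CARD16* are thus uncertain to the extent of the sequence they share, and their sum is given beside *CASP1* below.

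*PYCARD*, *CASP1* and *GSDME* were higher in the libraries labeled LV-*ATF7*, *NLRP1* was lower, and *CASP4* and *GSDMD* did not pass the test. Across all genes tested, 67.6% were called at an adjusted p under 0.05 by edgeR's quasi-likelihood test (34.7% higher and 32.9% lower), so 4 called genes of 6 is near the background. The median log2 fold change was 0.47 over the 6 genes and 0.00016 over all genes tested. The values of the 2 groups did not overlap for 4 of the 6 genes, against 72.7% of all genes tested. The 6 genes covered a wide range of effect sizes. The difference of *CASP1* was larger than that of 91.4% of the genes tested, that of *PYCARD* than 90.3%, that of *NLRP1* than 80.8% and that of *GSDME* than 60.2%, while *CASP4* exceeded 16.3% and *GSDMD* 7.22%. LV-NC replicate 1 was the LV-NC library nearest to the LV-*ATF7* mean for *NLRP1*, *CASP1*, *CASP4* and *GSDME*, 4 of the 6 genes, as it was for 47.9% of all genes tested.

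**Figure D1:**
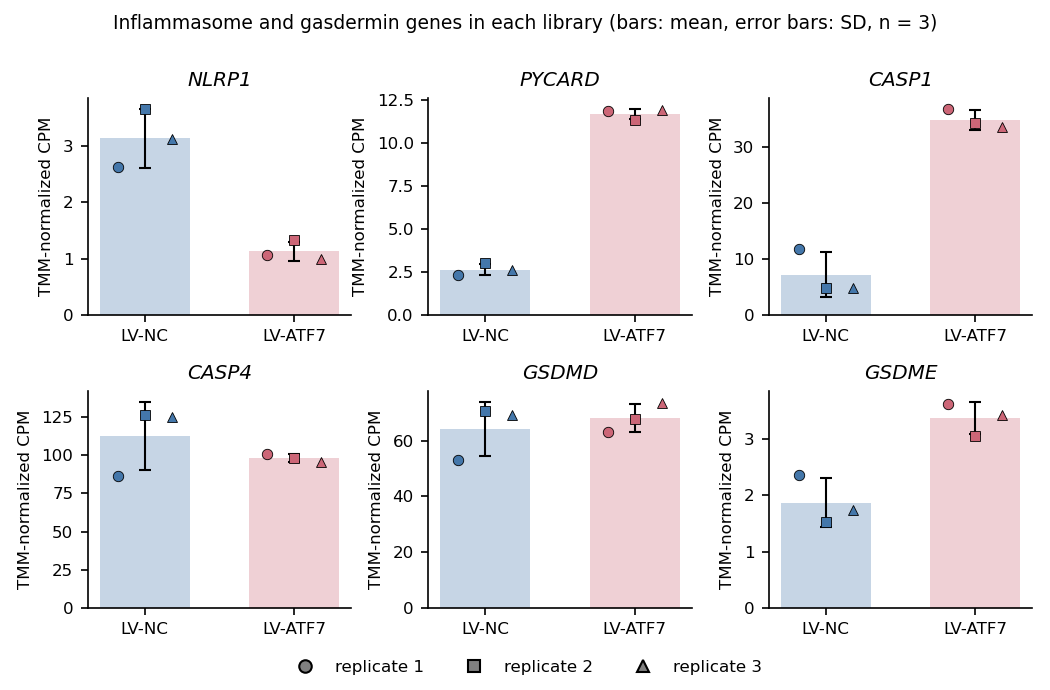
TMM-normalized CPM of each gene in the 3 libraries labeled LV-NC (blue) and the 3 labeled LV-ATF7 (red), with bars at the group mean, error bars of 1 SD (n = 3) and marker shapes for replicates 1 to 3; each panel has its own axis from 0. The groups are separate for NLRP1, PYCARD, CASP1 and GSDME and overlap for CASP4 and GSDMD, and the circle of LV-NC replicate 1 is apart from the other LV-NC points for CASP1, CASP4, GSDMD and GSDME.

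*NLRP1* (ENSG00000091592, chr17:5499427-5619424, minus strand) was counted 49, 70 and 54 times in LV-NC and 19, 26 and 18 times in LV-*ATF7*. These counts correspond to 2.62, 3.67 and 3.13 CPM in LV-NC and to 1.06, 1.33 and 0.995 CPM in LV-*ATF7*. Every LV-NC library was above every LV-*ATF7* library. The mean was 3.14 ± 0.523 CPM in LV-NC and 1.13 ± 0.175 CPM in LV-*ATF7* (SD, n = 3 each), 2.79-fold higher in LV-NC. The log2 fold change was -1.47 (SE 0.25, 95% interval -2.04 to -0.90, adjusted p = 0.00103). The sensor was thus detected at low counts in all 6 libraries, and its call held under each of the 13 alternatives, with log2 fold changes from -1.63 to -1.37.

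*PYCARD* (ENSG00000103490, chr16:31201485-31203450, minus strand) encodes ASC, which polymerizes into the speck that gathers caspase-1. Its counts were 43, 57 and 45 in LV-NC and 212, 222 and 215 in LV-*ATF7*. In CPM these were 2.30, 2.99 and 2.61 in LV-NC and 11.8, 11.3 and 11.9 in LV-*ATF7*. All 3 LV-*ATF7* libraries were higher, with little spread in either group. The mean rose from 2.63 ± 0.344 CPM to 11.7 ± 0.316 CPM (SD, n = 3 each), 4.44-fold, and the log2 fold change was 2.15 (SE 0.16, 95% interval 1.77 to 2.52, adjusted p = 1.72e-05). LV-NC replicate 1 was not the nearest to LV-*ATF7* here, and the alternatives gave log2 fold changes from 1.98 to 2.21. The antisense gene *PYCARD-AS1* covers 59.7% of the exon bases of *PYCARD* on the opposite strand. Strandedness of the counting was not given in the sources used here, so reads of the 2 genes cannot be told apart in that part.

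*CASP1* (ENSG00000137752, chr11:105025443-105035250, minus strand), the protease recruited by ASC, was counted 220, 92 and 84 times in LV-NC and 661, 672 and 607 times in LV-*ATF7*. The corresponding levels were 11.8, 4.82 and 4.86 CPM in LV-NC and 36.9, 34.3 and 33.6 CPM in LV-*ATF7*. LV-NC replicate 1 was higher than the other LV-NC libraries, and all LV-*ATF7* libraries were above all LV-NC libraries. The mean rose from 7.16 ± 4.01 CPM to 34.9 ± 1.76 CPM (SD, n = 3 each), 4.88-fold, with a log2 fold change of 2.28 (SE 0.33, 95% interval 1.52 to 3.05, adjusted p = 4.62e-04). Without LV-NC replicate 1 the log2 fold change was 2.83. *CARD16* itself was at 2.50 ± 0.583 CPM in LV-NC and 2.17 ± 0.207 CPM in LV-*ATF7* and was not called (log2 fold change -0.20, adjusted p = 0.491). Summed with *CARD16*, the level went from 9.66 ± 4.28 CPM to 37.1 ± 1.77 CPM (SD, n = 3 each), 3.84-fold higher in LV-*ATF7*.

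*CASP4* (ENSG00000196954, chr11:104942866-104969436, minus strand), the lipopolysaccharide-binding caspase, was counted 1618, 2405 and 2159 times in LV-NC and 1803, 1924 and 1730 times in LV-*ATF7*. It stood at 86.6, 126.1 and 125.0 CPM in LV-NC and at 100.6, 98.1 and 95.7 CPM in LV-*ATF7*. LV-NC replicate 1 was below all LV-*ATF7* libraries and the other LV-NC libraries were above them. The means were 112.6 ± 22.5 CPM and 98.1 ± 2.49 CPM (SD, n = 3 each), and the log2 fold change of -0.20 (SE 0.15, 95% interval -0.54 to 0.14, adjusted p = 0.263) did not pass the test. Without LV-NC replicate 1 it was -0.37 and passed (adjusted p = 6.15e-05), where 80.1% of the genes tested were called (39.9% higher and 40.2% lower). With all 6 libraries it also passed with library size as the only scaling (-0.36, adjusted p = 0.0453) and with voom quality weights (-0.34, adjusted p = 4.37e-05). Those weights gave LV-NC replicate 1 only 0.0948, against 0.577 to 3.66 for the other libraries. The call thus depended on the scaling and on the weight given to that library. Within each library, the log2 ratio of *CASP1* to *CASP4* in counts per exon base was -1.91, -3.74 and -3.71 in LV-NC and -0.48, -0.55 and -0.54 in LV-*ATF7*. The groups did not overlap, the mean difference was 2.60 (3.20 without LV-NC replicate 1), and the two-sided exact permutation test gave p = 0.1, the smallest it can give with 3 libraries a group and also the value adjusted over the 2 ratios compared.

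*GSDMD* (ENSG00000104518, chr8:143553207-143563062, plus strand) encodes the pore-forming substrate shared by caspase-1 and caspase-4. Its counts were 990, 1345 and 1195 in LV-NC and 1132, 1328 and 1327 in LV-*ATF7*. In CPM the values were 53.0, 70.5 and 69.2 in LV-NC and 63.2, 67.7 and 73.4 in LV-*ATF7*. The groups overlapped, and LV-NC replicate 1 was the lowest library. The mean was 64.2 ± 9.74 CPM in LV-NC and 68.1 ± 5.11 CPM in LV-*ATF7* (SD, n = 3 each). The log2 fold change of 0.084 (SE 0.13, adjusted p = 0.587) had a 95% interval from -0.22 to 0.39, and without LV-NC replicate 1 it was -0.058 (adjusted p = 0.525). No difference in *GSDMD* was detected with either set of libraries, and its sign turned with that library.

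*GSDME* (ENSG00000105928, chr7:24698351-24758113, minus strand), a gasdermin also known as DFNA5, was counted 44, 29 and 30 times in LV-NC and 65, 60 and 62 times in LV-*ATF7*. Its levels were 2.36, 1.52 and 1.74 CPM in LV-NC and 3.63, 3.06 and 3.43 CPM in LV-*ATF7*. Every LV-*ATF7* library was above every LV-NC library, of which replicate 1 was the highest. The mean rose from 1.87 ± 0.434 CPM to 3.37 ± 0.289 CPM (SD, n = 3 each), 1.80-fold, with a log2 fold change of 0.85 (SE 0.23, 95% interval 0.30 to 1.39, adjusted p = 0.0125). The call was lost without LV-NC replicate 2 (0.68, adjusted p = 0.0576), without LV-NC replicate 3 (0.75, adjusted p = 0.0529) and without LV-*ATF7* replicate 1 (0.79, adjusted p = 0.0507), and without LV-NC replicate 1 the log2 fold change was 1.03. Within each library, the log2 ratio of *GSDMD* to *GSDME* per exon base was 5.28, 6.33 and 6.11 in LV-NC and 4.91, 5.26 and 5.21 in LV-*ATF7*. *GSDMD* thus exceeded *GSDME* in all 6 libraries, by less in those labeled LV-*ATF7* (mean difference -0.78, or -1.09 without LV-NC replicate 1, two-sided exact permutation p = 0.1 with all libraries, the smallest possible). The interval between the groups was narrow, since LV-NC replicate 1 lay just above the highest LV-*ATF7* library.

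**Figure D2:**
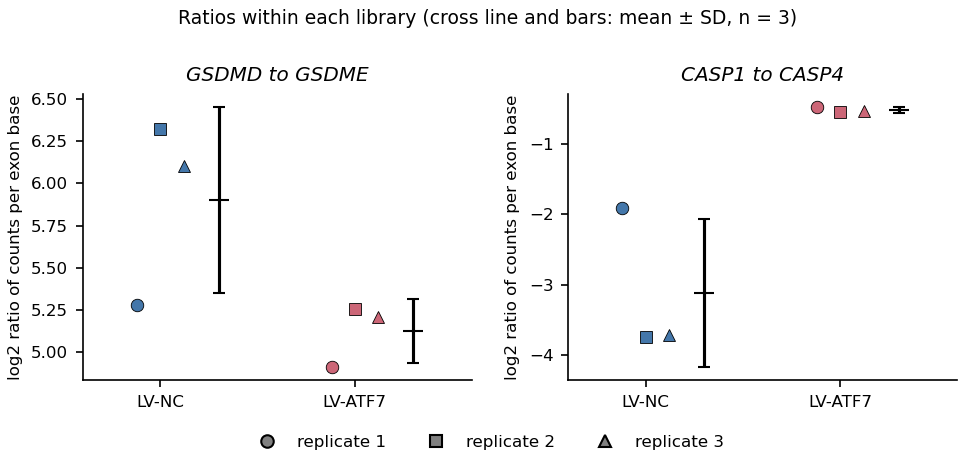
Log2 ratio of GSDMD to GSDME (left) and of CASP1 to CASP4 (right), in counts per exon base within each library, by group label; points are libraries, shaped by replicate number, and the cross lines and bars are the mean ± SD (n = 3). The groups are separate in both panels, and LV-NC replicate 1 is the LV-NC point nearest to the LV-ATF7 points in each; the axes do not start at 0.

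**Figure D3:**
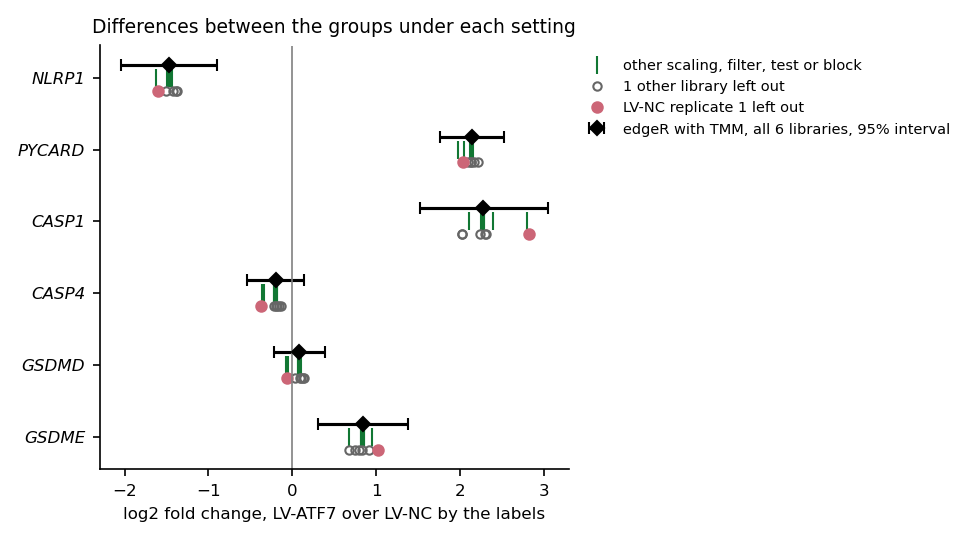
Log2 fold change of each gene between the libraries labeled LV-ATF7 and LV-NC. Black diamonds and bars are the edgeR estimate and its 95% interval, green ticks are other scalings, filters, tests and the replicate block, open circles leave out 1 of 5 libraries and filled red circles leave out LV-NC replicate 1. NLRP1, PYCARD, CASP1 and GSDME keep their sign throughout, whereas GSDMD lies on both sides of 0.

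*ATF7*, the factor the virus was built to supply, belongs to the ATF/CREB family, whose members bind the cyclic AMP response element (CRE). RefSeq promoter windows (GRCh38.p14) were held for *PYCARD*, *CASP4* and *GSDME*, and none was held for *NLRP1*, *CASP1* or *GSDMD*. The 250 bases before the start were searched on both strands for the CRE TGACGTCA, its core TGACG (contained in the full CRE), the AP-1 motif TGANTCA and the GAS motif TTCNNNGAA. The windows of *PYCARD* and *CASP4* held none of these letters, and both lay wholly within annotated exons. The *GSDME* window held 1 CRE core and none of the other motifs. Of 35116 promoters, 21.2% held the CRE core, 1.65% the full CRE, 6.57% the AP-1 motif and 6.57% the GAS motif. The stretch of the *GSDME* window outside annotated exons, which still lies within the annotated span of the gene, is shown with the CRE core, read on the opposite strand, in capitals (chr7:24757544-24757706, minus strand, 5′ to 3′).
GSDME: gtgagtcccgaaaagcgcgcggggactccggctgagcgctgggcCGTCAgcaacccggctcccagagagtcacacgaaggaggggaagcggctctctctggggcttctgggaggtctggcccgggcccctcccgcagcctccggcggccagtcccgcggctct
The GC content of the 250 bases was 71.2% for *PYCARD*, 38% for *CASP4* and 76.4% for *GSDME*, with a median of 58% over all promoters. These matches are descriptions of the letters only, and no binding was measured at these genes here.

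Levels were compared between genes per kilobase of annotated exon (GENCODE release 29, each exon base counted once). On this scale of CPM per kb, *CASP4* and *GSDMD* were the highest in both groups. *CASP4* was at 15.5 ± 3.1 in LV-NC and 13.5 ± 0.343 in LV-*ATF7*, and *GSDMD* at 12.6 ± 1.90 and 13.3 ± 0.999 (SD, n = 3 each). The ranges of these neighbors overlapped in both groups. *CASP1* followed at 1.94 ± 1.08 in LV-NC and 9.44 ± 0.475 in LV-*ATF7*, and *PYCARD* at 1.58 ± 0.207 and 7.03 ± 0.190. Their ranges overlapped in LV-NC (1.30 to 3.19 for *CASP1*, 1.39 to 1.80 for *PYCARD*) and were separate in LV-*ATF7*. *NLRP1* and *GSDME* were the lowest, with *NLRP1* at 0.245 ± 0.0409 in LV-NC and 0.088 ± 0.0136 in LV-*ATF7*. *GSDME* was at 0.212 ± 0.0490 in LV-NC and 0.381 ± 0.0327 in LV-*ATF7*. These 2 genes overlapped in LV-NC, and *GSDME* was above *NLRP1* in every LV-*ATF7* library. The order changed on the deposited FPKM scale, where *PYCARD* (0.858 in LV-NC and 3.40 in LV-*ATF7*) was above *CASP1* (0.244 and 1.05) in both groups and above *GSDMD* (3.15 and 2.99) in LV-*ATF7*. The gene length implied by the deposited FPKM was 19.6 times the exon length for *NLRP1*, 8.51 times for *CASP1*, 4.20 times for *GSDMD* and 1.95 times for *PYCARD*, with a median of 2.61 over all genes, so FPKM is lowered most for *NLRP1*.

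Across the 6 libraries, *CASP1* and *GSDME* varied together on the log2 CPM scale (Pearson r = 0.983 over 6 libraries), and both varied against *NLRP1* (r = -0.969 and -0.974). *PYCARD* followed *CASP1* less closely (r = 0.911), and *GSDMD* followed none of these genes (r = -0.163 with *NLRP1*, 0.377 with *PYCARD*, -0.012 with *CASP1* and -0.066 with *GSDME*). With *CASP4*, r was 0.591 for *GSDMD*, 0.581 for *NLRP1*, -0.365 for *PYCARD*, -0.709 for *CASP1* and -0.728 for *GSDME*. These values are descriptions, because the libraries form 2 groups and share the position of LV-NC replicate 1. The genes most like each of the 6 over the same 6 libraries were *RIT1* and *EMC7* for *NLRP1*, *PSMB9* and *WDR74* for *PYCARD*, *RPS27* and *LGALSL* for *CASP1*, *MAD2L1* and *SMC2* for *CASP4*, *REX1BD* and *HINT1* for *GSDMD*, and *MAPK8IP2* and *SNAI3* for *GSDME*, each with r above 0.99. Likeness of this degree was common: 532 genes had r over 0.99 with *PYCARD*, 351 with *CASP1*, 75 with *NLRP1*, 30 with *GSDME*, 20 with *CASP4* and 6 with *GSDMD*.

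The rest of the pathway was described by 8 lists holding 72 genes, of which 50 had a row. The lists were chosen with earlier results of these data known. In these lists 27 genes were higher in the libraries labeled LV-*ATF7*, 11 were lower and 12 were not called, and the median log2 fold change was 0.37, against 34.7% higher, 32.9% lower and a median of 0.00016 over all genes tested. The groups did not overlap for 37 of the 50, near the 72.7% over all genes. Without LV-NC replicate 1, 41 of the 50 were called, against 80.1% of all genes. The smallest row of the table held 51 counts over the 6 libraries, and genes without a row were not analysed here.

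Of 12 other inflammasome sensors, 4 had a row. *NLRP3*, the sensor best known from macrophages, had none, nor had *NLRP7*, *NLRP10*, *NLRP12*, *NLRC4*, *NAIP*, *AIM2* and *MEFV*. *IFI16*, a nuclear DNA sensor, rose from 110.1 ± 14.0 CPM to 152.9 ± 16.4 CPM (log2 fold change 0.47, adjusted p = 0.0104), a call that was lost with library size as the only scaling (0.32, adjusted p = 0.0533). *NLRP2* fell from 215.1 ± 43.1 CPM to 159.7 ± 7.09 CPM (-0.43, adjusted p = 0.0322), but its groups overlapped at LV-NC replicate 1 (165.4 CPM), and the call was lost when any 1 of the other 5 libraries was left out (adjusted p from 0.0656 to 0.0987), whereas without LV-NC replicate 1 it was -0.61 (adjusted p = 1.14e-08). *CARD8*, a sensor that works in the same way as NLRP1 but without ASC, was at 9.24 ± 1.03 CPM and 7.87 ± 0.866 CPM and was not called (adjusted p = 0.233). *NLRP6*, singled out after its values were seen, was counted 1, 0 and 0 times in LV-NC and 33, 32 and 35 times in LV-*ATF7*, a ratio of 98.9 per effective library size with an exact 95% counting interval from 17.4 to 3946.

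Among 12 regulators of NLRP1 and inflammasome activation, 11 had a row, 5 were higher and 3 were lower. *NEK7*, which licenses NLRP3 assembly, was at 155.0, 169.2 and 165.9 CPM in LV-NC and at 44.0, 42.3 and 33.0 CPM in LV-*ATF7* (log2 fold change -2.04, SE 0.13, adjusted p = 7.14e-06). *BRCC3*, a deubiquitinase acting on NLRP3, rose from 12.1 ± 1.12 CPM to 32.4 ± 4.84 CPM (1.42, adjusted p = 8.65e-05). *MAPK12*, a p38 kinase of the family that phosphorylates NLRP1 after ribotoxic stress, rose from 6.49 ± 0.574 CPM to 24.9 ± 1.75 CPM (1.94, adjusted p = 1.18e-05). The p38 genes did not move together: *MAPK13* and *MAPK11* were also higher (1.17 and 1.24), while *MAPK14* was lower (-0.69). *DPP9*, the dipeptidyl peptidase that holds NLRP1 inactive, was at 92.1, 151.7 and 156.8 CPM in LV-NC and 100.3, 99.4 and 108.6 CPM in LV-*ATF7*. It was not called by edgeR with TMM scaling and all libraries (-0.38, adjusted p = 0.111) and was lower without LV-NC replicate 1 (-0.61, adjusted p = 3.46e-08), with library size as the only scaling (-0.54, adjusted p = 0.0252) and with voom quality weights (-0.60, adjusted p = 3.60e-08), the 3 settings under which *CASP4* was also called.

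Of 7 genes of lipopolysaccharide sensing and gasdermin transcription, 6 had a row (*GBP5* had none), 4 were higher and 1 was lower. *GBP2*, an interferon-induced guanylate-binding protein that helps expose bacterial lipopolysaccharide to caspase-4, was at 20.1, 7.39 and 6.66 CPM in LV-NC and at 62.8, 58.3 and 53.5 CPM in LV-*ATF7* (2.35, adjusted p = 9.29e-04, and 3.03 without LV-NC replicate 1). *GBP4* rose from 10.9 ± 6.27 CPM to 38.6 ± 2.12 CPM (1.82, adjusted p = 0.00178, and 2.39 without LV-NC replicate 1). As for *CASP1*, LV-NC replicate 1 was the highest LV-NC library for both. *IRF1*, an interferon-induced transcription factor, rose from 108.2 ± 13.7 CPM to 314.4 ± 22.2 CPM (1.54, adjusted p = 1.84e-05). *IRF2*, a transcription factor known to drive *GSDMD* transcription, was at 37.6 ± 1.47 CPM and 47.9 ± 1.13 CPM, higher by a small margin (0.35, adjusted p = 0.00833) that did not pass once LV-NC replicate 3 was left out (0.28, adjusted p = 0.0699) or with library size as the only scaling (0.19, adjusted p = 0.126).

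Of 9 other inflammatory and apoptotic caspases, 8 had a row, 3 were higher and 2 were lower, and *CASP5*, the paralog of *CASP4*, had none. *CASP10*, an initiator caspase of death receptor signaling, rose from 15.2 ± 2.05 CPM to 29.5 ± 0.418 CPM (0.96, adjusted p = 3.21e-04). *CASP8*, the initiator caspase that can also cut gasdermin D, was at 29.4 ± 0.835 CPM and 35.5 ± 0.233 CPM. Its call (0.27, adjusted p = 0.0298) was lost when any 1 library other than LV-NC replicate 1 was left out (adjusted p from 0.0535 to 0.165), with library size as the only scaling (adjusted p = 0.355) and with the replicate block (adjusted p = 0.0655). *CASP14*, a caspase of cornification singled out after its values were seen, was counted 2, 0 and 0 times in LV-NC and 88, 103 and 83 times in LV-*ATF7*, a ratio of 135.5 per effective library size with an exact 95% counting interval from 37.2 to 1125.

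Of 8 other genes of gasdermins and membrane rupture, 7 had a row (*GSDMA* had none), 4 were higher and 1 was lower. *GSDMB*, another pore-forming gasdermin, was at 40.5, 15.8 and 18.5 CPM in LV-NC and at 80.4, 83.9 and 84.6 CPM in LV-*ATF7* (1.73, SE 0.32, adjusted p = 0.00172, and 2.26 without LV-NC replicate 1), again with LV-NC replicate 1 between the groups. *GSDMC* was counted 3, 5 and 1 times in LV-NC and 21, 39 and 43 times in LV-*ATF7* (3.45, SE 0.50, adjusted p = 4.83e-04). *PJVK*, a further gasdermin relative named after its values were seen, was also higher (1.34, adjusted p = 0.00130). *NINJ1*, which ruptures the plasma membrane after pore formation, was at 77.7 ± 9.22 CPM and 80.7 ± 7.48 CPM and was not called (0.053, adjusted p = 0.706), with a sign that turned under several alternatives. *ZDHHC5*, one of the palmitoyltransferases that act on gasdermin D, fell from 705.0 ± 63.1 CPM to 430.9 ± 20.1 CPM (-0.71, adjusted p = 4.87e-04). *ZDHHC9* was at 54.0 ± 9.06 CPM and 71.7 ± 5.46 CPM (0.41, adjusted p = 0.0266). Its call was lost without LV-NC replicate 2 or 3 or LV-*ATF7* replicate 2 or 3 (adjusted p from 0.0761 to 0.132). It was also lost with library size as the only scaling (adjusted p = 0.180). The log2 fold change without LV-NC replicate 1 was 0.53 (edgeR adjusted p = 4.86e-06).

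Of 12 inhibitors, 7 had a row, 4 were higher and 2 were lower. *SERPINB1*, a protease inhibitor that restrains inflammatory caspases, was at 115.9, 112.3 and 106.8 CPM in LV-NC and at 630.0, 655.2 and 653.8 CPM in LV-*ATF7*, a 5.79-fold rise (2.53, SE 0.090, adjusted p = 9.77e-07). *IL1RN*, the interleukin-1 receptor antagonist, rose from 2.14 ± 1.03 CPM to 8.19 ± 1.05 CPM (1.94, adjusted p = 0.00142). *LRRFIP2*, a partner of flightless-1 in restraining caspase-1, fell from 64.7 ± 3.70 CPM to 34.1 ± 1.45 CPM (-0.93, adjusted p = 6.97e-05). *FLII*, the gene of flightless-1 itself, rose from 297.6 ± 39.0 CPM to 459.3 ± 25.5 CPM (0.63, adjusted p = 0.00192). *CARD17*, *CARD18*, *PYDC1*, *PYDC2* and *SERPINB9* had no row, so of the CARD-only neighbors of *CASP1* only *CARD16* was measured.

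Of 6 interleukin-1 family cytokines, the 3 with a row were higher, as were 34.7% of all genes tested. *IL33*, *IL36G* and *IL37* had no row. *IL1B*, the precursor cut by caspase-1, was at 40.2, 7.81 and 6.19 CPM in LV-NC and at 76.8, 80.5 and 80.2 CPM in LV-*ATF7*. Its log2 fold change was 2.13 (SE 0.63, adjusted p = 0.0163) with all libraries, 3.47 without LV-NC replicate 1 and 2.12 without LV-*ATF7* replicate 3, where the call was lost (adjusted p = 0.0586). *IL1A*, an alarmin that is active without caspase-1, was at 28.9, 9.91 and 9.03 CPM in LV-NC and at 115.5, 110.9 and 92.5 CPM in LV-*ATF7* (2.74, adjusted p = 6.26e-04, and 3.47 without LV-NC replicate 1). Both genes showed the pattern of *CASP1*, with LV-NC replicate 1 high among the LV-NC libraries. *IL18*, by contrast, was even within groups, at 39.7 ± 1.57 CPM in LV-NC and 77.6 ± 3.26 CPM in LV-*ATF7*, 1.95-fold higher (0.97, adjusted p = 4.50e-05).

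Of 6 genes of necroptosis, the other lytic death pathway, 4 had a row, and *RIPK3*, the kinase that activates MLKL, and *ZBP1* had none. *MLKL*, the executioner, rose from 9.11 ± 2.32 CPM to 29.2 ± 1.75 CPM (1.68, adjusted p = 1.33e-04). *RIPK1*, the kinase upstream of RIPK3, fell from 106.3 ± 3.33 CPM to 75.2 ± 2.54 CPM (-0.50, adjusted p = 0.00101). *TICAM1*, the Toll-like receptor adaptor TRIF, was at 30.5 ± 11.5 CPM and 54.3 ± 3.68 CPM (0.83, adjusted p = 0.0132). Its call was lost without LV-NC replicate 2 or 3 or LV-*ATF7* replicate 3 (adjusted p from 0.0562 to 0.0596). The log2 fold change without LV-NC replicate 1 was 1.17 (edgeR adjusted p = 3.62e-11).

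**Figure D4:**
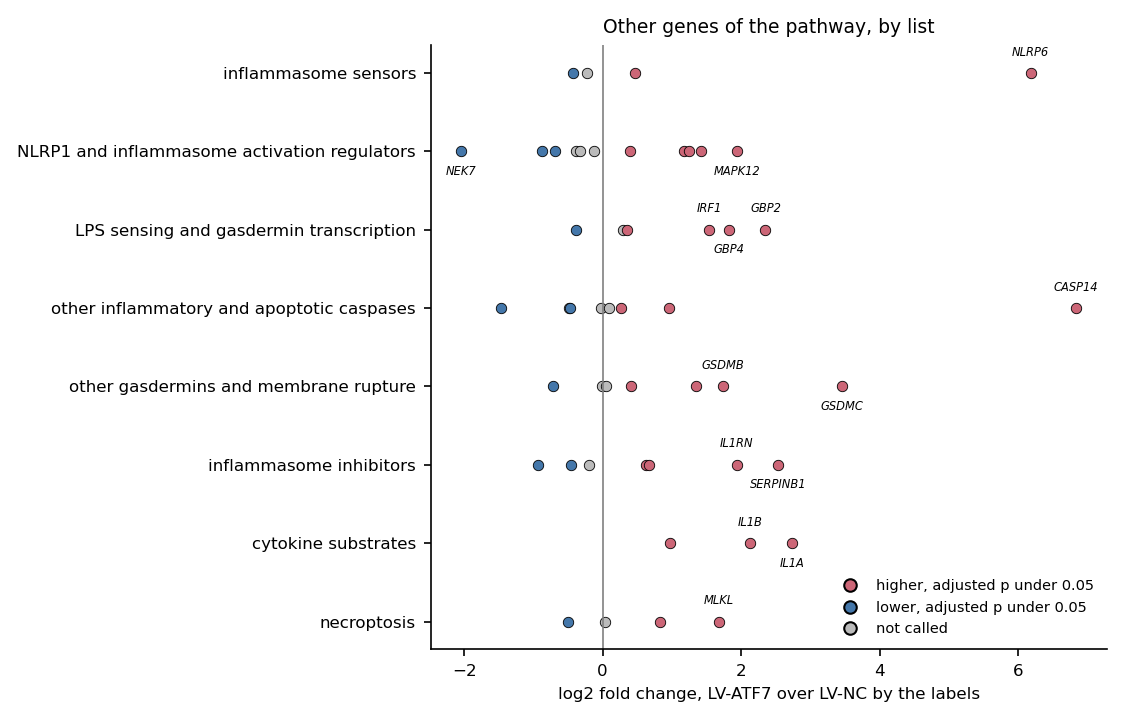
Log2 fold change (LV-ATF7 over LV-NC by the labels) of the 50 measured genes of the 8 pathway lists, 1 point per gene; red points were called higher, blue points lower and gray points not called at an adjusted p under 0.05, and genes with a log2 change beyond 1.5 are named. The 3 cytokines are all on the higher side, the other lists have points on both sides, and NLRP6 and CASP14 are at the far right because LV-NC had 1 and 2 counts for them.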

How the data were processed

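HaCaT libraries were prepared from oligo(dT)-enriched RNA and sequenced on an Illumina NovaSeq instrument, 3 per group. The authors deposited raw read counts and FPKM values for 12499 genes, of which 33 had no symbol and were kept under their identifiers. GRCh38 is named in the submitters' processing notes. The aligner, counting program, annotation and strandedness are not given in the sources used here. The authors' deposited fold changes (a ratio), log2 fold changes and p-values hold their own comparison and were not used. Groups were taken from the labels, and every count column matched a sample.

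Counts were tested with edgeR 4.0.16 in R 4.3.3 (glmQLFit, glmQLFTest, TMM scaling, filterByExpr, no covariates). The p-values were adjusted by Benjamini-Hochberg across the 12462 genes left by the filter, and the threshold was 0.05. The deposited count totals (16686472 to 20562768) make counting error small for *CASP4* and *GSDMD* and appreciable for *NLRP1* and *GSDME*. Counting intervals cover counting error only. FPKM and counts per exon base (GENCODE release 29) served for levels and ratios, and ratios were compared by exact permutation tests in SciPy 1.17.1. The alternatives changed the scaling (upper quartile, or library size alone), the filter (none, or a minimum of 10 counts per library), the test (DESeq2 1.42.0, or limma 3.58.1 voom with quality weights), the block (replicate number) and the libraries (each left out in turn). The edgeR script was tested on simulated data. Correlations used log2 CPM with a prior count of 2.

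The members and lists were chosen with earlier results of these data known. Named genes were the 6 members with every library, the called genes of each list with the largest change and a mean count of 50 or more (up to 3), fixed partners of the members (*NLRP3*, *DPP9*, *CASP8*, *CASP5*, *CARD16*, *IL1B*, *IL18*, *IL1A*, *NINJ1*, *IRF2*, *CARD8*, *GSDMA* and *GSDMC*), the 2 genes most like each member, and *ATF7*. *NLRP6*, *CASP14*, *PJVK*, *FLII* and the other p38 genes were named after their values were seen. Some genes that this rule names are not reported here.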

Additional observations from a re-analysis of the deposited data

How the results depend on the processing

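*NLRP1*, *PYCARD* and *CASP1* kept their direction and their call under all 13 alternatives. Leaving out each library in turn gave log2 fold changes from -1.60 to -1.37 for *NLRP1*, 2.04 to 2.21 for *PYCARD*, 2.02 to 2.83 for *CASP1*, -0.37 to -0.14 for *CASP4*, -0.058 to 0.137 for *GSDMD* and 0.68 to 1.03 for *GSDME*. *CASP4* passed the threshold with library size as the only scaling (-0.36), with voom quality weights (-0.34) and without LV-NC replicate 1 (-0.37), and *GSDMD* took the opposite sign under the same 3 settings (-0.077, -0.046 and -0.058) without passing. *GSDME* lost its call without LV-NC replicate 2 (0.68), without LV-NC replicate 3 (0.75) and without LV-*ATF7* replicate 1 (0.79). The cause was not tested. The number of members called was 3 to 5 of 6 over the alternatives, that of pathway genes 32 to 42, and that of all genes 7290 to 10391 against 8429. Library size as the only scaling shifted the all-gene median by -0.16 on the log2 scale.

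Among the fits of single pathway genes, 33 lost a call and 9 gained one. With total-count CPM the LV-*ATF7* levels of *PYCARD* (11.0), *CASP1* (33.0) and *CASP4* (92.8 CPM) moved by more than 1 SD. Uncalled pathway genes changed sign as follows. With library size only, *CASP6* was at -0.065, *NINJ1* at -0.12 and *FADD* at -0.12, and with upper quartile scaling *ZDHHC7* was at 0.0036. With voom quality weights, *TXNIP* was at 0.13 and *CASP6* at -0.049. Leaving out 1 library gave ranges that crossed 0 for all 6 genes: -0.58 to 0.13 for *TXNIP*, -0.032 to 0.15 for *CASP6*, -0.11 to 0.048 for *CASP2*, -0.054 to 0.13 for *NINJ1*, -0.076 to 0.043 for *ZDHHC7* and -0.0046 to 0.085 for *FADD*.

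Deviations of same-numbered libraries from their group means correlated at 0.058, -0.021 and 0.065. Libraries with different numbers were not compared, so these values do not settle whether the replicate numbers pair the samples. With the replicate block, 8210 genes were called, the log2 fold changes of the 6 members were -1.47, 2.15, 2.40, -0.18, 0.093 and 0.86 in the order *NLRP1*, *PYCARD*, *CASP1*, *CASP4*, *GSDMD* and *GSDME*, and no member's call changed. The counts of *NLRP1* and *GSDME*, between 18 and 70 per library, limit the precision of their fold changes.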
